A study of Canis lupus familiaris with 17 samples.

Results

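Peripheral nerve sheath tumours of dogs were compared 2 days after intratumoral IL-2 and IL-12 and without treatment. All samples of the series labelled as this sarcoma type and either excised 2 days after the last dose or left untreated were taken, which gave 8 of the 17 tumours. Of the 5 treated tumours, 2 (A and C) came out on day 2 after a single dose, and 3 (A, B and C) came out on day 8, 2 days after the second of 2 doses given on day 0 and day 6. The cytokines were collagen-binding forms injected into the tumour of client-owned dogs whose sarcomas had arisen spontaneously. The 3 untreated tumours (B, F and G) were archived tissue, so archiving and treatment cannot be told apart in any comparison with them. A further 2 nerve sheath tumours (B and C) excised 8 days after 1 dose are used for the comparison over time. Every tumour was formalin-fixed and came from a dog of its own, so all differences are between animals. The labels do not say whether fixation, handling and storage of the archived tumours were like those of the treated ones. Letters name tumours within a group and do not pair dogs across groups.

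Nerve sheath tumours are spindle cell sarcomas of cells that wrap peripheral nerves, and they are rich in collagen, the anchor that the collagen-binding cytokines use. IL-2 drives growth and killing by T cells and natural killer (NK) cells that carry its receptor. IL-12 acts on the same cells through STAT4 and makes them release interferon-gamma, which in turn makes tumour, vessel and myeloid cells produce antigen presentation proteins, chemokines such as CXCL10 and the tryptophan-degrading enzyme IDO1. Some of these products, among them PD-L1 and IDO1, also restrain T cells.

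RNA was counted on an nCounter panel of 780 immune-oncology probes, which counts labelled probes on single RNA molecules without amplification. Endogenous totals were 1016527 to 1752729 counts in 4 treated tumours and 1200521 to 1422654 in the untreated ones. One-dose tumour C stood apart with 126997 counts. Counts were scaled by the geometric mean of 20 housekeeping probes and are called normalized counts here. That mean was 279.9, 61.9, 643, 297 and 608 raw counts in one-dose tumours A and C and two-dose tumours A, B and C, and 534 to 635 in the untreated tumours. After scaling, the background limit of one-dose tumour C, the mean plus 2 SD of its negative controls, was 152 normalized counts. The limit was 16.3 to 61.7 in the other 4 treated tumours and 18.7 to 20.9 in the untreated ones. A value in one-dose tumour C under its limit therefore says only that the probe was not above background there.

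The labelled tumour type rested on few markers. SOX10, the transcription factor that defines Schwann cells, had 40.3, 80.1, 13.3, 39.6 and 12.6 normalized counts in the 5 treated tumours, against 27.0, 18.0 and 15.6 in the 3 untreated tumours, and it was above background in 0 of the 5 treated and 1 of the 3 untreated tumours. S100B, the Schwann cell calcium-binding protein used in diagnosis, read 156, 160.3, 24.6, 120.2 and 44.5 in the treated tumours, against 81.1, 131 and 13.5 in the untreated ones. The neuronal tubulin TUBB3 was above background in all 8 tumours, with 293, 1414, 4126, 157 and 1437 in the treated tumours, against 2305, 1722 and 3053 in the untreated ones. Other Schwann cell genes such as PMP22 and NGFR were not analysed here. On these probes the label could be neither borne out nor contradicted, and the tumours are named by it.

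After treatment, many genes of killer lymphocytes, of the interferon-gamma response and of antigen presentation lay above every untreated nerve sheath tumour, and a few matrix and tumour genes lay below. The count of probes that passed an adjusted threshold depended on the test. In the 5 treated against the 3 untreated tumours, 99 of 697 tested probes (14.2%) were higher in every treated tumour than in any untreated one, and 11 (1.58%) were lower. In 79 of the 99 (11.3% of those tested) all 5 treated tumours were also above background. The lowest treated tumour was at least 2 times the highest untreated one for 17 probes (2.44%) and at least 4 times for 5 (0.717%), namely GZMB, CXCL10, TRGC3, IDO1 and CD160. TRGC3 was above background in 3 and CD160 in 4 of the 5 treated tumours, and neither in any untreated one. Their ratios are therefore to values at background. A probe was tested if above background in at least 3 of the fitted tumours, which the treated tumours alone could supply. For such probes a higher treated value is partly set by that rule. The quasi-likelihood test of edgeR called 0 probes at a Benjamini-Hochberg adjusted p under 0.05 (0%). At an unadjusted p under 0.05 it gave 189 higher probes (27.1%) and 6 lower ones (0.861%), and 76 probes had an adjusted p under 0.1. DESeq2 on the same counts called 162 higher (23.2%) and 3 lower (0.43%), and limma on the authors' deposited normalized signal called 2 higher (0.287%) and 0 lower. The edgeR count was 36 higher without two-dose tumour A, 85 higher and 1 lower without two-dose tumour C, and 1 lower without untreated tumour B. Without one-dose tumour C it stayed at 0, with 110 probes higher and 17 lower in each of the other 4. The number higher in every treated tumour was 156 without two-dose tumour C and 207 without untreated tumour B. The number lower was 26 without two-dose tumour A, 20 without two-dose tumour C, 24 without untreated tumour B and 17 without untreated tumour G. With a tumour left out, groups without overlap are easier to reach, so these counts of higher and lower probes tend to rise by construction.

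The scaling sets the zero point of these differences. The median log2 fold change over all 697 probes was 0.86 with housekeeping scaling and 0.057 with trimmed mean (TMM) scaling, which assumes that most probes do not differ. With TMM, 67 probes (9.61%) were higher and 64 (9.18%) lower in every treated tumour. The medians of gene lists below are to be read against 0.86, or 0.057 with TMM. Counts of separated genes, whose groups do not overlap, are to be read against 14.2% for higher and 1.58% for lower ones. With TMM they are to be read against 9.61% and 9.18%. With housekeeping scaling, 540 of the 697 probes had a positive and 157 a negative log2 fold change. Counts of positive and negative genes in the lists are to be read against these numbers. Values per tumour are normalized counts, in the order one-dose A and C and two-dose A, B and C for the treated tumours and B, F and G for the untreated ones. Among the genes named below as separated, SOCS1, S100A8, IGHM, CD8A, CD3E, IL12RB1, DLA88, DLA-DRA and TAP1 overlapped with TMM. In bulk tissue, more cells of a type and more RNA per cell cannot be told apart.

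**Figure D1:**
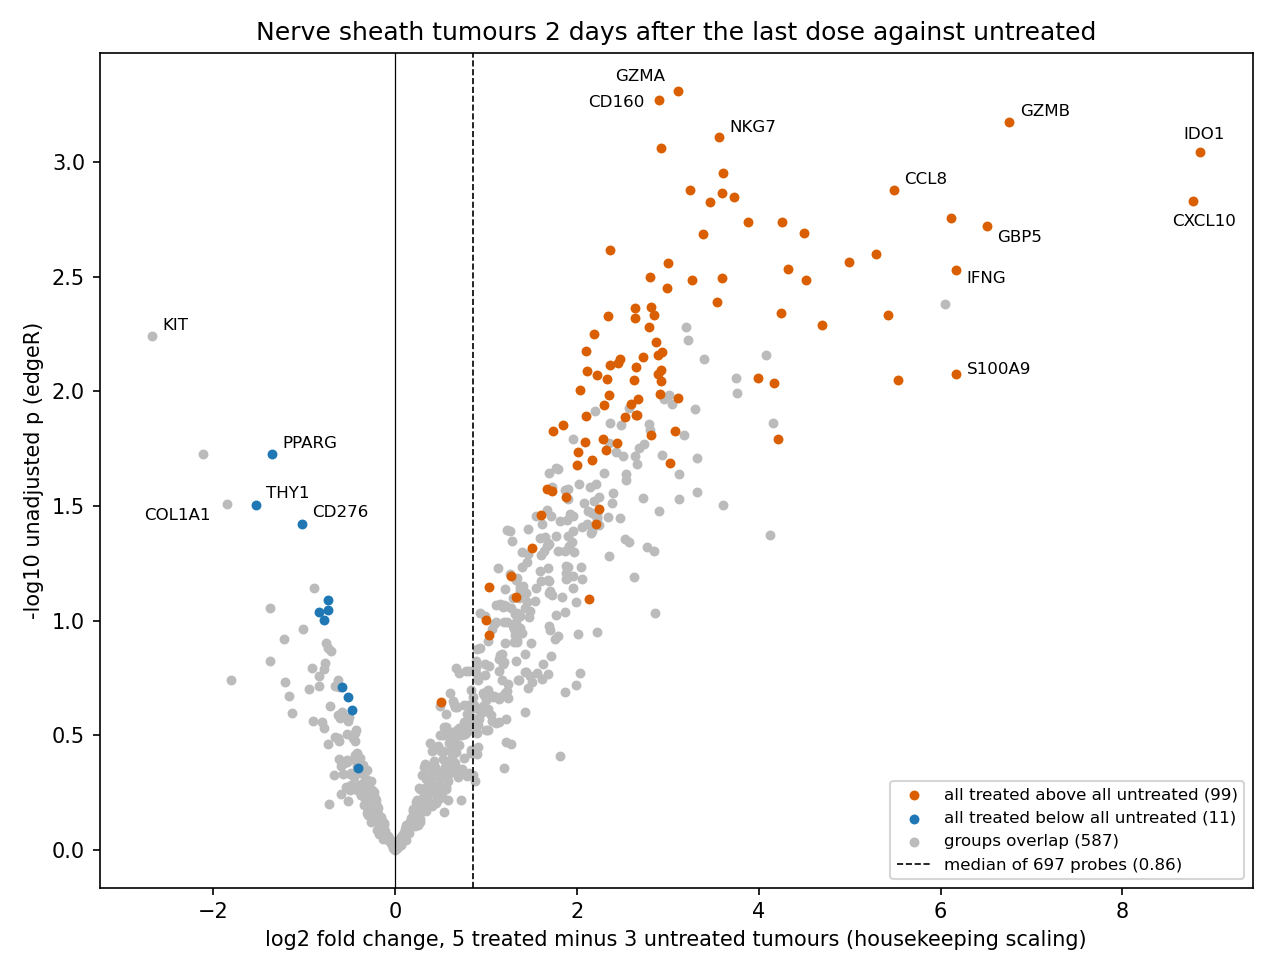
Each point is 1 of 697 probes, with the log2 fold change of the 5 treated minus the 3 untreated nerve sheath tumours (housekeeping scaling) on the x axis and -log10 of the unadjusted edgeR p on the y axis. Orange marks the 99 probes above, and blue the 11 below, the untreated range in every treated tumour; the dashed line is the median of 0.86.

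Of the granule genes of killer lymphocytes, GZMB showed the widest separation. GZMB, the protease granzyme B that kills target cells, had 3739, 517, 927, 11281 and 689.9 normalized counts in the 5 treated tumours, against 37.2, 44.3 and 13.5 in the 3 untreated tumours. Every treated tumour held at least 11.7 times the highest untreated value, the widest gap of the 697 probes, and the log2 difference was 6.76 ± 1.42 (SE; edgeR adjusted p = 0.0757). GZMA, granzyme A, had 683, 277, 299.5, 812 and 304 normalized counts in the 5 treated tumours, against 84.5, 35.3 and 45.5 in the 3 untreated tumours. One-dose tumour C and two-dose tumours A and C were close to each other, one-dose tumour A and two-dose tumour B were higher, and the groups did not overlap (log2 difference 3.11 ± 0.62; edgeR adjusted p = 0.0757, the lowest p of the comparison). NKG7, a protein of cytotoxic granules, read 614, 299, 159, 902 and 160.2 in the treated tumours, against 36.3, 44.3 and 27.7 in the untreated ones, again without overlap. FASLG, the death ligand that engages FAS, read 166, 321, 58.2, 339 and 72.7 in the treated tumours, against 17.7, 33.6 and 19.9 in the untreated ones. PRF1, the pore-forming perforin, had 255, 641, 189, 408 and 255 in the treated tumours, against 107, 193 and 175 in the untreated ones; here the groups overlapped, since two-dose tumour A lay below untreated tumour F. Of the 12 tested genes of cytotoxic effectors, 7 were higher in every treated tumour and 7 had an unadjusted edgeR p under 0.05 with a higher value, with a median log2 fold change of 2.38 (1.55 with TMM). In 5 of the 7 genes higher in every treated tumour, all 5 treated tumours were also above background.

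Receptors for the injected cytokines were among the separated genes on the IL-2 side. IL2RB, the beta chain that NK and memory T cells use to sense IL-2, had 609, 386, 199.9, 983 and 191 normalized counts in the 5 treated tumours, against 44.8, 79.5 and 25.6 in the 3 untreated tumours. All 5 treated tumours lay above the untreated range (log2 difference 3.24 ± 0.75; edgeR adjusted p = 0.0757). IL2RG, the gamma chain shared by several cytokine receptors, read 1584, 619, 215, 1559 and 205 in the treated tumours, against 114, 166 and 57.5 in the untreated ones, without overlap. IL2RA, the high-affinity alpha chain of activated and regulatory T cells, read 691, 255, 149, 671 and 78.6 in the treated tumours, against 49.0, 79.5 and 8.52 in the untreated ones; two-dose tumour C was just below untreated tumour F. On the IL-12 side, IL12RB1 read 116, 284, 43.5, 195 and 33.4 in the treated tumours, against 19.4, 32.8 and 26.3 in the untreated ones, with only a narrow gap between two-dose tumour C and untreated tumour F, and with overlap under TMM scaling. IL12RB2, the chain that binds STAT4, read 118, 51.0, 43.5, 202 and 69.0 in the treated tumours, against 24.5, 30.3 and 156 in the untreated ones, and only untreated tumour G lay within the treated values. STAT4 itself, the transcription factor downstream of IL-12, read 156, 138, 182, 137 and 398 in the treated tumours, against 191, 404 and 344 in the untreated ones, with 4 of 5 treated tumours below all 3 untreated ones. EOMES, a transcription factor of effector T and NK cells, read 235, 248, 74.4, 461 and 106 in the treated tumours, against 20.3, 27.9 and 7.10 in the untreated ones, without overlap (log2 difference 3.60 ± 0.83; edgeR adjusted p = 0.0757). SOCS1, the feedback inhibitor of cytokine signalling, read 2029, 597, 479.8, 1928 and 217 in the treated tumours, against 132, 151 and 154 in the untreated ones, also without overlap. The list as a whole had 9 of 26 tested genes above the untreated range in every treated tumour, 0 below it, and a median of 1.94 (1.06 with TMM).

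**Figure D2:**
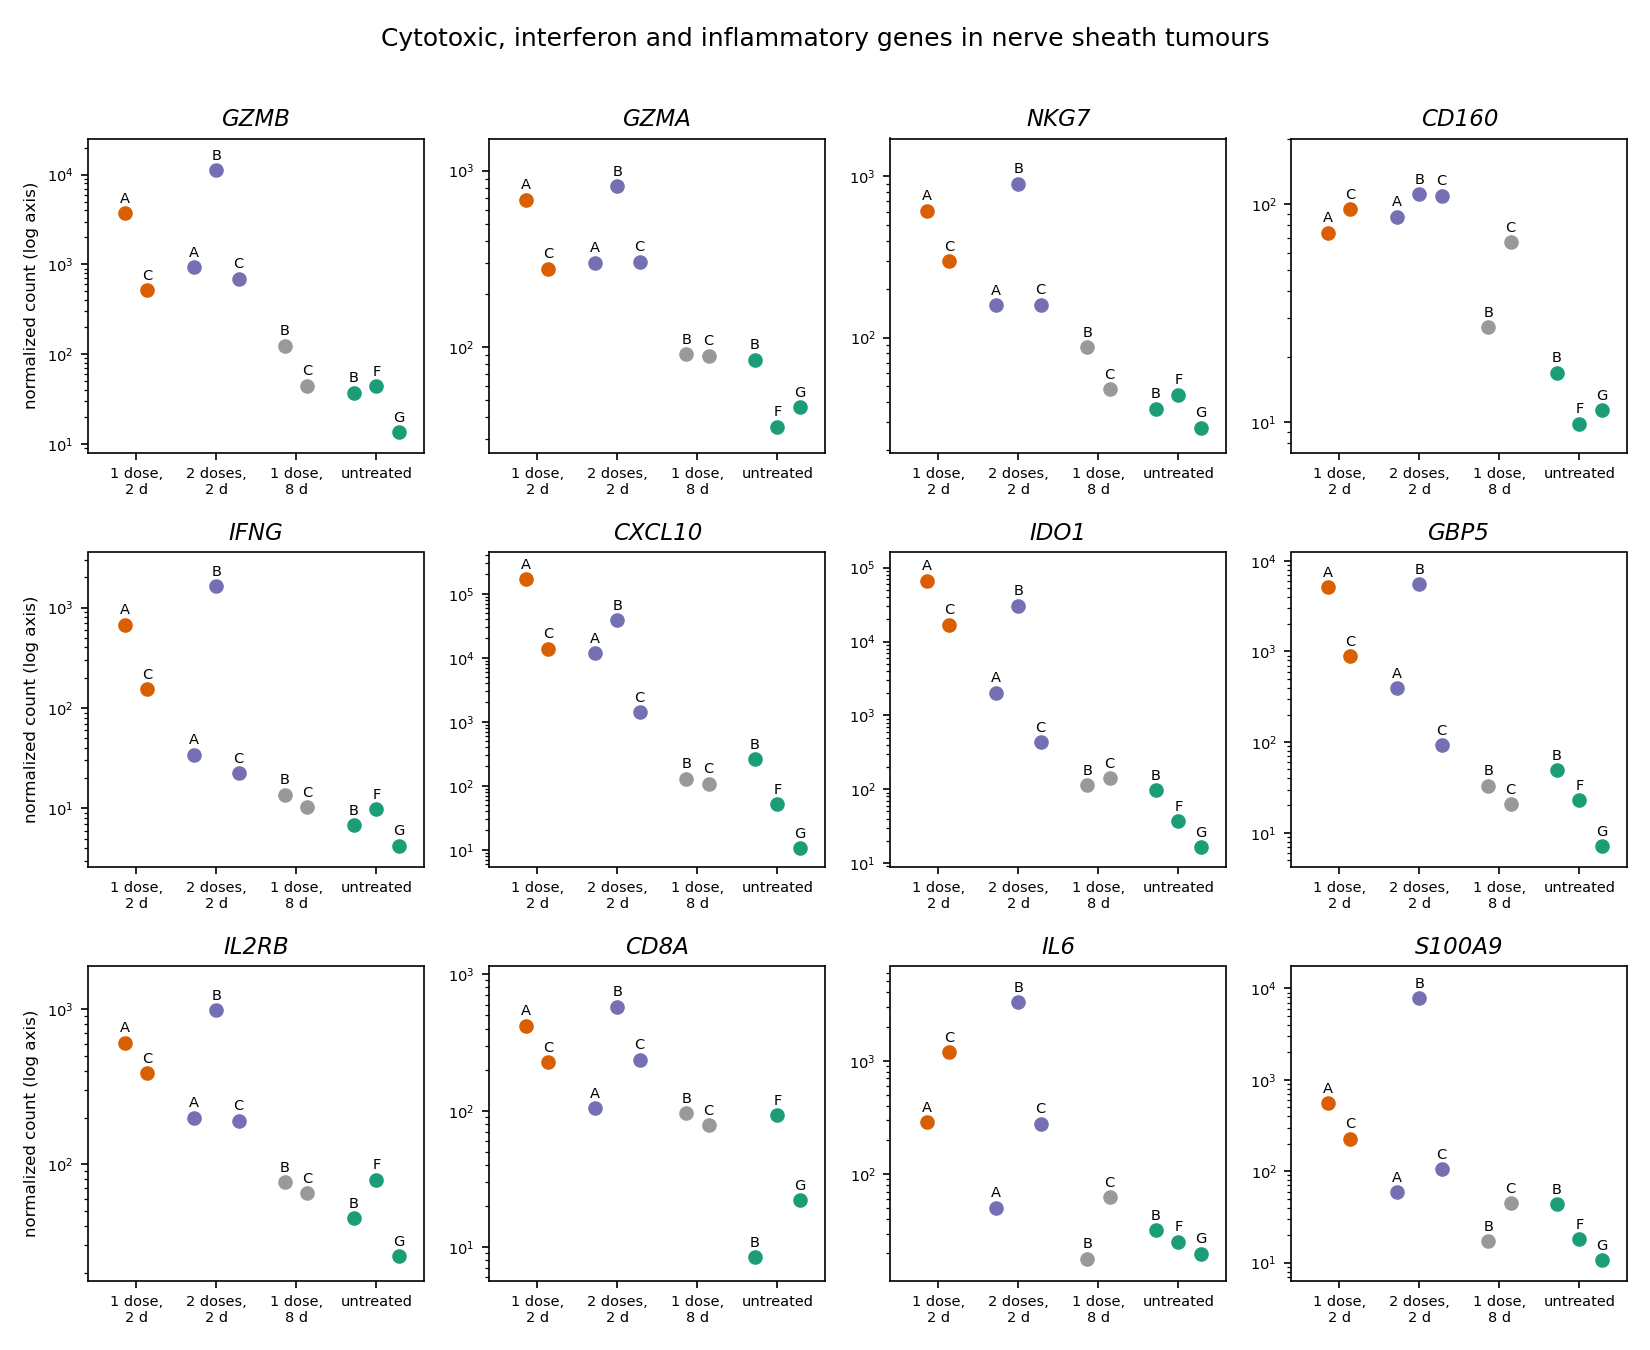
Normalized counts (log axis) of 12 genes in each nerve sheath tumour, 1 point per tumour with its letter, for 2 days after 1 dose, 2 days after 2 doses, 8 days after 1 dose and untreated. GZMB, CXCL10 and IDO1 lie above the untreated range in all 5 tumours taken 2 days after dosing, and both tumours taken at 8 days lie below all 5.

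Interferon-gamma and the genes it induces formed the list with the largest share of separated genes. Of 21 tested genes, 16 were higher in every treated tumour (13 with TMM), 19 had an unadjusted edgeR p under 0.05, and none was lower, with a median log2 fold change of 3.39 (2.42 with TMM). IFNG, the cytokine itself, had 677, 153, 34.4, 1638 and 22.3 normalized counts in the 5 treated tumours, against 6.76, 9.84 and 4.26 in the 3 untreated tumours, and in the untreated tumours it was never above background. Two-dose tumour B and one-dose tumour A held most, and two-dose tumours A and C were only 34.4 and 22.3 (log2 difference 6.17 ± 1.60; edgeR adjusted p = 0.0789). CXCL10, the chemokine that attracts CXCR3-bearing T cells, had 169808, 13902, 11763, 38931 and 1412 normalized counts in the 5 treated tumours, against 260.2, 51.6 and 10.7 in the 3 untreated tumours. Two-dose tumour C was the lowest treated tumour and one-dose tumour A the highest, and none reached down to the untreated values (log2 difference 8.78 ± 2.05; edgeR adjusted p = 0.0757).

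IDO1, the enzyme that depletes tryptophan, read 66150.3, 16977, 2018, 30517 and 436 in the treated tumours, against 97.2, 36.9 and 16.3 in the untreated ones, and its log2 difference of 8.85 ± 1.93 (edgeR adjusted p = 0.0757) was the largest of all tested probes. GBP5, an interferon-induced GTPase, read 5095, 882, 393, 5541 and 92.7 in the treated tumours, against 49.0, 23.0 and 7.10 in the untreated ones, without overlap. IRF1, an interferon-induced transcription factor, read 11229.8, 22689, 1377, 8901 and 1133 in the treated tumours, against 585, 432 and 168 in the untreated ones, without overlap, and one-dose tumour C had the highest value. CD274, which encodes PD-L1, read 969, 401, 271, 1189.7 and 154 in the treated tumours, against 105, 68.9 and 49.7 in the untreated ones, without overlap (log2 difference 3.00 ± 0.77; edgeR adjusted p = 0.0789). CXCL11, a further CXCR3 ligand, overlapped, with 405, 372, 26.7, 228 and 21.5 in the treated tumours, against 20.3, 32.8 and 28.4 in the untreated ones: both two-dose tumours A and C stayed within the untreated range.

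Antigen presentation genes of both MHC classes were among the separated ones. In MHC class I and peptide loading, 7 of 11 tested genes were above the untreated range in every treated tumour (4 with TMM) and all 11 had a positive log2 fold change, with a median of 2.65. PSMB8, an immunoproteasome subunit that cuts peptides for MHC class I, read 4247, 11527, 711, 4847 and 358 in the treated tumours, against 224, 134 and 51.1 in the untreated ones. NLRC5, the class I transactivator, read 1272, 2893, 425, 1677 and 171 in the treated tumours, against 152, 113 and 51.9 in the untreated ones, and TAP1, the peptide transporter, read 3828, 1224, 1047, 3163 and 593 in the treated tumours, against 589, 242 and 124 in the untreated ones. None of these genes overlapped between the groups, although TAP1 did with TMM, whereas B2M, the light chain of class I, did, with 278624, 45182, 84618, 179750.3 and 38579 in the treated tumours, against 55004, 18940.4 and 9939.7 in the untreated ones. DLA88, a classical dog class I gene, read 32506, 7804, 11913, 25049 and 8231 in the treated tumours, against 4798, 3937 and 724 in the untreated ones; the lowest treated tumour exceeded the highest untreated one, although not with TMM. In MHC class II, 5 of 10 were separated and the median was 2.83. CIITA, the class II transactivator, read 2134, 772, 408, 1961 and 241 in the treated tumours, against 115, 129.5 and 71.0 in the untreated ones (log2 difference 3.39 ± 0.83; edgeR adjusted p = 0.0757). CD74, the invariant chain, read 64846, 24029.9, 20154, 73411 and 12676 in the treated tumours, against 6972, 6461 and 2622 in the untreated ones, and DLA-DRA, the class II alpha chain, read 67788, 8860.0, 21891, 74983 and 12899 in the treated tumours, against 8073, 6134 and 1709.6 in the untreated ones. Class I genes share sequence among family members, so what the DLA88 probe counts is uncertain.

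Genes best known from the type I interferon response showed less separation. Of 13 tested, 1, ISG20, was higher in every treated tumour, and the median log2 fold change was 1.21 (0.45 with TMM). ISG20, an exonuclease that degrades viral RNA, read 1035, 627, 257, 1258 and 189 in the treated tumours, against 87.0, 48.4 and 16.3 in the untreated ones. MX1, an antiviral GTPase, overlapped widely, with 2914, 627, 1245, 616 and 1006 in the treated tumours, against 2323, 209.9 and 199 in the untreated ones: untreated tumour B was above 4 of the 5 treated ones. The same untreated tumour held the highest untreated values of ISG15, a ubiquitin-like modifier, which read 579, 495, 309, 158 and 177 in the treated tumours, against 275, 94.3 and 19.9 in the untreated ones.

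Chemokines that recruit lymphocytes and monocytes were separated in part. In the list of T cell chemokines and homing receptors, 8 of 25 tested genes lay above the untreated range in every treated tumour and all 25 had a positive log2 fold change, with a median of 2.39 (1.50 with TMM). In 7 of the 8, all 5 treated tumours were also above background. CCL8, a monocyte chemokine, had 7834, 1771, 994, 8275 and 435 normalized counts in the 5 treated tumours, against 161, 59.0 and 38.4 in the 3 untreated tumours (log2 difference 5.48 ± 1.26; edgeR adjusted p = 0.0757). CCL3, made by activated macrophages and lymphocytes, read 148, 452, 65.2, 1549 and 50.4 in the treated tumours, against 49.0, 12.3 and 14.2 in the untreated ones; neither CCL8 nor CCL3 overlapped. CXCR3, the receptor for CXCL10, read 98.3, 87.4, 62.4, 455 and 72.7 in the treated tumours, against 23.7, 33.6 and 15.6 in the untreated ones, and CXCR6, a receptor of tissue T cells, read 172, 219, 132, 615 and 176 in the treated tumours, against 38.0, 83.6 and 22.0 in the untreated ones. In one-dose tumour C, CXCR3 was not above background. CCL5, CCL19 and CXCL13 overlapped; CXCL13, the B cell chemokine, read 292, 277, 22.4, 27.4 and 22.3 in the treated tumours, against 29.6, 70.5 and 32.0 in the untreated ones and was high in both one-dose tumours.

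Among checkpoint and regulatory genes the separation was limited to 3 of 21 tested genes higher and 1 lower, with a median of 1.01 (0.14 with TMM). PDCD1, which encodes PD-1, read 59.6, 488, 23.9, 63.9 and 35.6 in the treated tumours, against 26.2, 50.8 and 34.1 in the untreated ones, with 1 high value in one-dose tumour C. CTLA4 read 113, 357, 37.9, 335 and 59.3 in the treated tumours, against 47.3, 63.1 and 31.3 in the untreated ones, and LAG3, an MHC class II-binding checkpoint, read 66.1, 248, 65.9, 89.8 and 51.2 in the treated tumours, against 43.9, 102 and 61.1 in the untreated ones; both overlapped. FOXP3, the regulatory T cell factor, read 16.1, 197, 26.0, 27.4 and 27.4 in the treated tumours, against 16.1, 36.1 and 28.4 in the untreated ones and was above background in 3 treated and 2 untreated tumours. The log2 difference of FOXP3 was 1.01 ± 0.92 over all 5 treated tumours and -0.14 without one-dose tumour C. That of PDCD1 was 1.79 ± 1.05 over all 5 and 0.29 without that tumour.

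T and NK cell genes were separated in part, and many of them were near background. In the T cell receptor list, 11 of 21 tested genes were separated (6 with TMM), with a median of 1.84 (1.04 with TMM), but in only 5 of them were all 5 treated tumours above background. CD3E, the signalling chain of the T cell receptor, read 464, 124, 179, 336 and 271 in the treated tumours, against 21.1, 119 and 28.4 in the untreated ones, and the gap to untreated tumour F was small. The lowest treated value, 124 in one-dose tumour C, was under the background limit of that tumour, 152 normalized counts. CD8A, the killer T cell coreceptor, read 419, 226, 104, 577 and 237 in the treated tumours, against 8.45, 92.6 and 22.0 in the untreated ones; two-dose tumour A was just above untreated tumour F. CD4, carried by helper T cells and some myeloid cells, overlapped, with 53.2, 306, 79.3, 1541 and 149.8 in the treated tumours, against 73.5, 49.2 and 23.4 in the untreated ones, and two-dose tumour B was far above the rest. TRGC3, a constant segment of the gamma delta T cell receptor, read 53.2, 36.4, 51.9, 45.6 and 40.8 in the treated tumours, against 3.38, 6.56 and 7.81 in the untreated ones, low counts that were above background in 3 treated and 0 untreated tumours. Among NK receptors, 5 of 11 were separated, and 2 of these with all treated tumours above background. CD160, a receptor of cytotoxic lymphocytes, read 74.1, 94.7, 87.7, 111 and 109.8 in the treated tumours, against 16.9, 9.84 and 11.4 in the untreated ones, an even set of treated values, although one-dose tumour C was not above background. KLRD1, the CD94 chain, read 119, 197, 92.6, 186 and 145 in the treated tumours, against 25.3, 58.2 and 19.2 in the untreated ones, and NCR1, the NK receptor NKp46, read 132, 182, 33.7, 219 and 13.4 in the treated tumours, against 16.1, 10.7 and 5.68 in the untreated ones, where two-dose tumour C lay within the untreated range. For B and plasma cells 1 of 11 tested genes was separated (0 with TMM), IGHM, the immunoglobulin M heavy chain, with 729, 204, 282, 4012 and 561 in the treated tumours, against 164, 177 and 70.3 in the untreated ones; the B cell marker MS4A1 did not pass the filter on low counts.

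Most neutrophil genes were separated, with widely spread treated values. Of 13 tested, 9 were higher in every treated tumour (7 with TMM), with a median of 2.89 (1.88 with TMM). In 7 of the 9, all 5 treated tumours were also above background. S100A8, a subunit of the neutrophil protein calprotectin, had 1954, 903, 350.1, 16354 and 332 normalized counts in the 5 treated tumours, against 273, 143 and 227 in the 3 untreated tumours. Two-dose tumour B held 16354, one-dose tumours A and C lay next, and two-dose tumours A and C exceeded the untreated range narrowly. S100A9, its partner, read 553, 226, 58.9, 7795 and 105 in the treated tumours, against 43.9, 18.0 and 10.7 in the untreated ones, and CSF3R, the G-CSF receptor of neutrophils, read 197, 342, 30.9, 1889.5 and 97.9 in the treated tumours, against 22.0, 20.5 and 16.3 in the untreated ones. The log2 difference of S100A9 was 6.17 ± 1.90 (edgeR adjusted p = 0.0937) over all 8 tumours and 3.28 without two-dose tumour B. CXCL8, the neutrophil attractant, overlapped, with 201, 488, 222, 4865 and 778 in the treated tumours, against 243, 77.9 and 73.2 in the untreated ones, and its log2 difference was 3.32 ± 1.20 over all 8 tumours and 1.68 without two-dose tumour B. IL6, an inflammatory cytokine, read 289, 1188, 50.5, 3266 and 279.7 in the treated tumours, against 32.1, 25.4 and 19.9 in the untreated ones without overlap (log2 difference 5.29 ± 1.34; edgeR adjusted p = 0.0789), and the acute phase gene SAA1 read 176, 335, 29.5, 499 and 21.5 in the treated tumours, against 16.9, 9.02 and 7.10 in the untreated ones, also without overlap. TNF overlapped only through two-dose tumour C, with 189, 328, 58.2, 504 and 44.5 in the treated tumours, against 40.6, 51.6 and 31.3 in the untreated ones.

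Macrophage genes showed little separation as a list, with 1 of 23 tested genes separated and a median of 0.84, against 0.86 for all probes. The separated gene was ACOD1, which makes the antimicrobial metabolite itaconate in activated macrophages, with 2963, 765, 143, 2618 and 47.5 in the treated tumours, against 22.8, 23.8 and 9.94 in the untreated ones (log2 difference 6.11 ± 1.47; edgeR adjusted p = 0.0757). CD163, a scavenger receptor of resident-type macrophages, read 595, 219, 758, 496 and 431 in the treated tumours, against 2996, 264 and 112 in the untreated ones, and CSF1R, the macrophage growth factor receptor, read 2651, 1304, 1065, 2755 and 935 in the treated tumours, against 1476, 1046 and 407 in the untreated ones; untreated tumour B held the highest CD163 value of the 8. NOS2, the inducible nitric oxide synthase, overlapped only because two-dose tumour C lay within the untreated range, with 1525, 678, 99.6, 867 and 74.9 in the treated tumours, against 67.6, 97.6 and 69.6 in the untreated ones. Among dendritic cell genes 1 of 10 was separated, XCR1, the receptor of cross-presenting dendritic cells, with 105, 175, 42.8, 269 and 79.4 in the treated tumours, against 16.9, 21.3 and 25.6 in the untreated ones. Of 5 tested mast cell genes, 4 had a positive log2 fold change and 1, KIT, a negative one. The median was 2.11 (1.22 with TMM), and 1 gene, CMA1, was separated. CMA1, the protease chymase, read 446, 197, 82.1, 266 and 66.8 in the treated tumours, against 31.3, 50.01 and 14.2 in the untreated ones. KIT, the stem cell factor receptor of mast cells, read 258, 160.3, 187, 125 and 303 in the treated tumours, against 86.2, 1682 and 2189.8 in the untreated ones. The KIT difference of -2.67 ± 0.77 (edgeR adjusted p = 0.0909) goes with the high values of untreated tumours F and G; untreated tumour B was below all 5 treated tumours.

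The 11 probes lower in every treated tumour included THY1, CD276 and PPARG, and their gaps were small. THY1, the CD90 surface protein of fibroblasts and sarcoma cells, had 6636, 1741, 8099, 3064 and 4184 normalized counts in the 5 treated tumours, against 9859, 18214 and 12965 in the 3 untreated tumours. The highest treated tumour, two-dose A, lay under the lowest untreated one, B (log2 difference -1.53 ± 0.62; edgeR adjusted p = 0.15). CD276, the B7-H3 checkpoint ligand of tumour and stromal cells, read 554, 386, 539, 347 and 896 in the treated tumours, against 1072, 1119 and 1143 in the untreated ones, without overlap (log2 difference -1.03 ± 0.43; edgeR adjusted p = 0.158). PPARG, a nuclear receptor of fat and macrophage metabolism, read 164, 299, 146, 154 and 470.3 in the treated tumours, against 572, 665 and 648 in the untreated ones, without overlap. ATG16L1, an autophagy protein, ATRX, a chromatin remodeller, and BRAF, a signalling kinase, had the widest gaps of the 11, at 0.731, 0.821 and 0.807 for the highest treated over the lowest untreated value. They, like CD276, SLAMF6, CALHM6, IL15 and CCL4, were chosen for naming after their values were seen.

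In the fibroblast and matrix list 9 of 12 tested genes had a negative log2 fold change, 2 of them (THY1 and COL1A1) with an unadjusted edgeR p under 0.05, against 0.861% of all probes, and the median was -0.66 (-1.32 with TMM). COL1A1, a chain of type I collagen, had 41321, 12008, 49694, 22619 and 17447 normalized counts in the 5 treated tumours, against 23531, 162795 and 121688 in the 3 untreated tumours. Untreated tumours F and G held far more than any treated tumour, whereas untreated tumour B lay among the treated ones (log2 difference -1.84 ± 0.74; edgeR adjusted p = 0.15). FN1, the matrix protein fibronectin, read 30185, 9188, 38822, 18524 and 21474 in the treated tumours, against 54425, 45914 and 32596 in the untreated ones, with two-dose tumour A above untreated tumour G. Nerve markers showed no common direction: 3 of 7 had a positive and 4 a negative log2 fold change, with a median of -0.032 (-0.70 with TMM). NCAM1, a neural adhesion molecule also found on NK cells, read 21.0, 124, 483, 35.0 and 21.5 in the treated tumours, against 116, 234 and 273 in the untreated ones, above all untreated tumours in two-dose tumour A and below them in 3 treated tumours. Proliferation genes had a median of -0.21 (-0.97 with TMM) over 6 genes, and MKI67, a marker of dividing cells, read 434, 51.0, 292, 464 and 62.3 in the treated tumours, against 168, 237 and 211 in the untreated ones.

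Genes of skin epithelium were high in some tumours of both groups. KRT14, a keratin of basal epidermis, read 6329.7, 1137, 22.4, 8942 and 25.2 in the treated tumours, against 17.7, 2764 and 29.1 in the untreated ones. One-dose tumours A and C, two-dose tumour B and untreated tumour F were high. Of 18 listed epithelial, fat and muscle markers, 6 were on the panel, all of them epithelial, so fat and muscle were not assessed. The summed level of the 6 was between 2426 and 12789.8 normalized counts in treated tumours and between 1631 and 4843 in untreated tumours. CLDN1, a junction protein that nerve sheath cells of perineurial type also carry, gave most of the sum in two-dose tumours A and C, with 851, 539, 3649, 596 and 12661 in the treated tumours, against 1505, 1158 and 4675 in the untreated ones. One-dose tumours A and C and two-dose tumour B, which were high in KRT14, were also the treated tumours with the highest values of the interferon-gamma list. The part of this tissue in the differences was not tested.

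**Figure D3:**
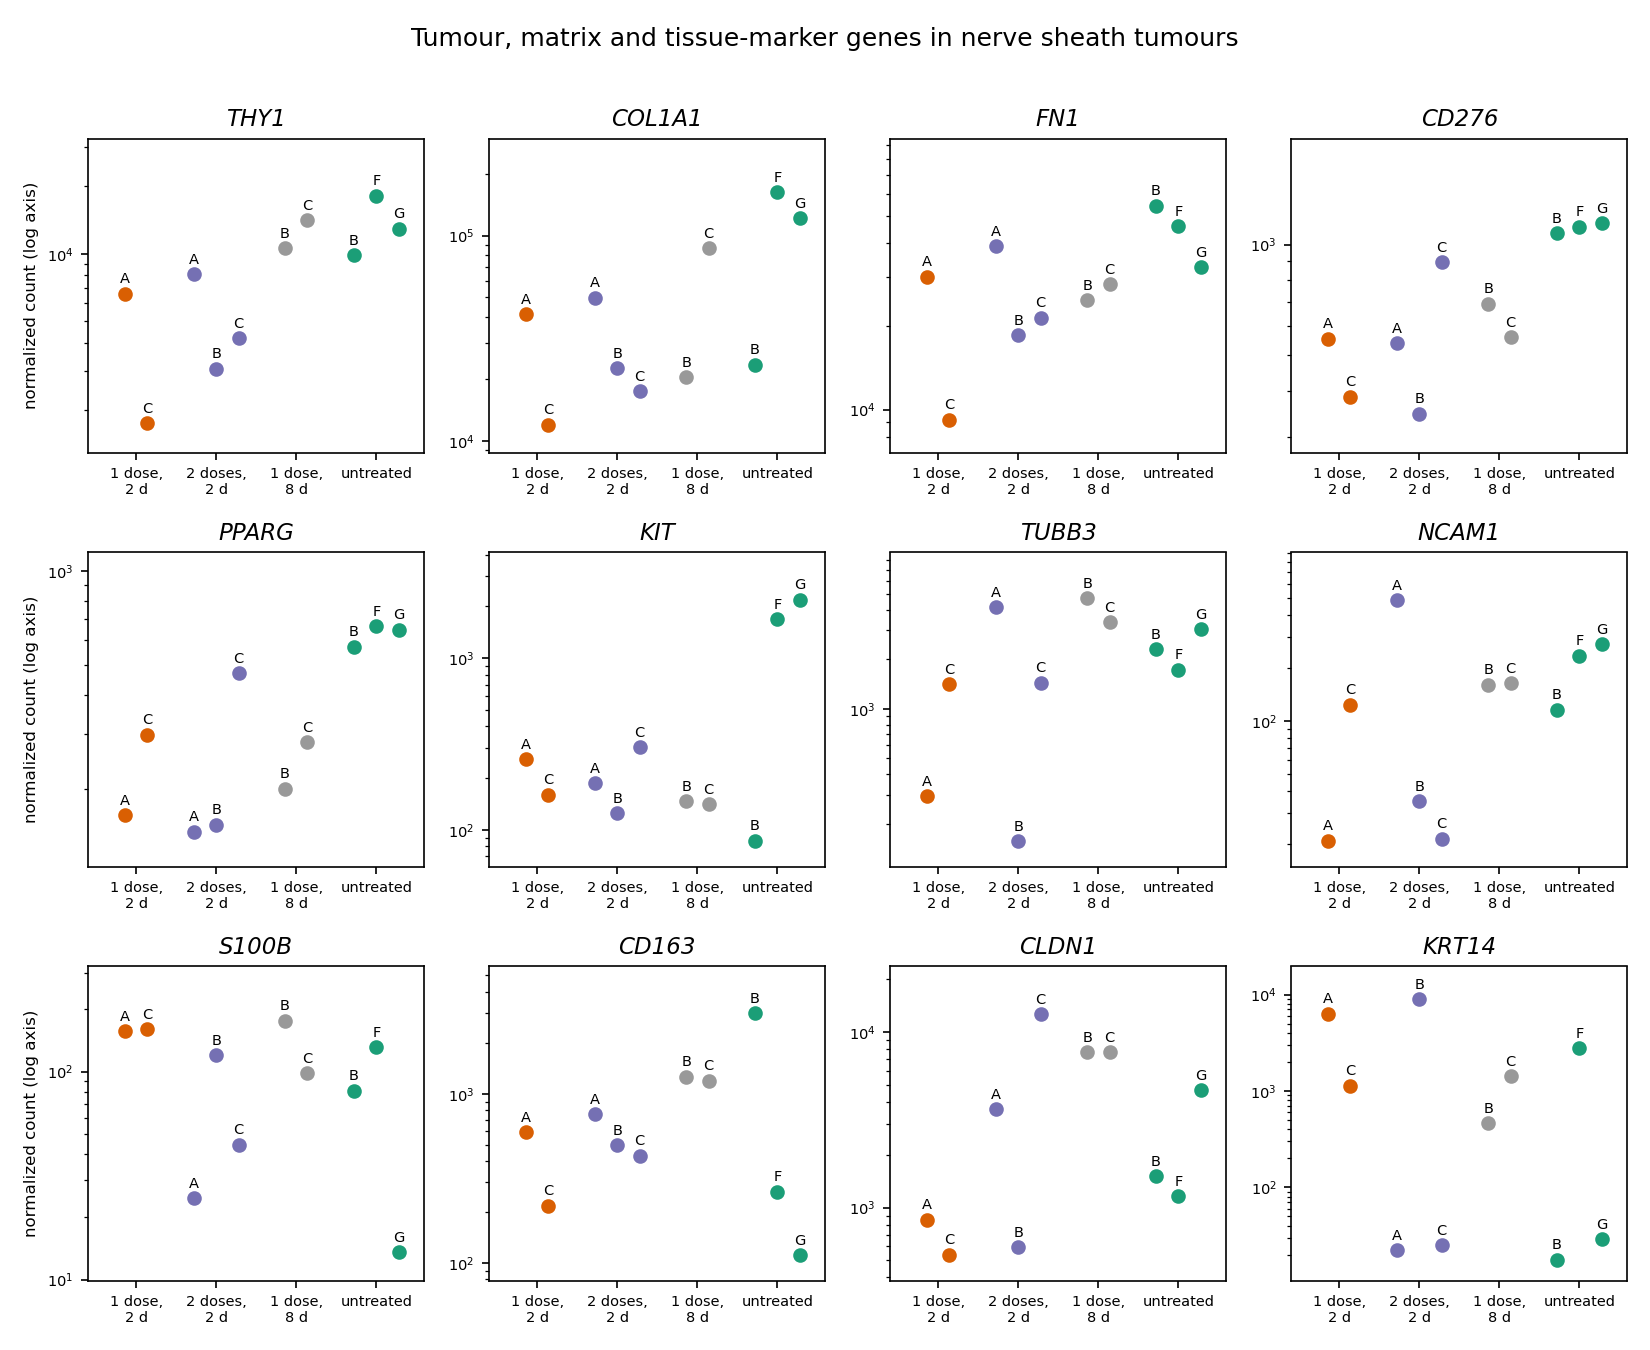
Normalized counts (log axis) of 12 matrix, tumour and tissue-marker genes in each nerve sheath tumour, 1 point per tumour with its letter, for 2 days after 1 dose, 2 days after 2 doses, 8 days after 1 dose and untreated. THY1, CD276 and PPARG in the tumours taken 2 days after dosing lie below the untreated range, and KIT and COL1A1 are highest in untreated tumours F and G.

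The 5 treated tumours differed widely among themselves. Each list was summarised per tumour as the median, over its tested genes, of log2(normalized count + 1) minus the mean of the untreated tumours. The interferon-gamma list stood at 4.37, 2.91, 2.00, 4.25 and 1.32 in one-dose tumours A and C and two-dose tumours A, B and C, against 0.74, 0.12 and -0.88 in untreated tumours B, F and G. One-dose tumour A and two-dose tumour B were highest and two-dose tumour C lowest, and every treated tumour was above every untreated one. The cytotoxic list stood at 2.83, 2.16, 1.66, 3.16 and 1.66 in the treated tumours, against 0.14, 0.29 and -0.43 in the untreated ones, so that two-dose tumours A and C were closer to the others than for interferon-gamma. The neutrophil list stood at 2.53, 2.95, 0.76, 4.37 and 0.68 in the treated and 0.41, -0.071 and -0.24 in the untreated tumours, with two-dose tumours A and C just above the untreated range. The matrix list stood at -0.37, -2.13, -0.36, -1.21 and -0.48 in the treated and -0.31, 0.22 and 0.13 in the untreated tumours; all treated values were below all untreated ones, with one-dose tumour C lowest. Over 24 lists, one-dose tumour A was the highest treated tumour in 9 and two-dose tumour B in 8, while two-dose tumour C was lowest in 16. With TMM scaling one-dose tumour A was highest in 8 and two-dose tumour B in 5, and two-dose tumour C was lowest in 8 and highest in 4, so this order depends on the scaling.

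**Figure D4:**
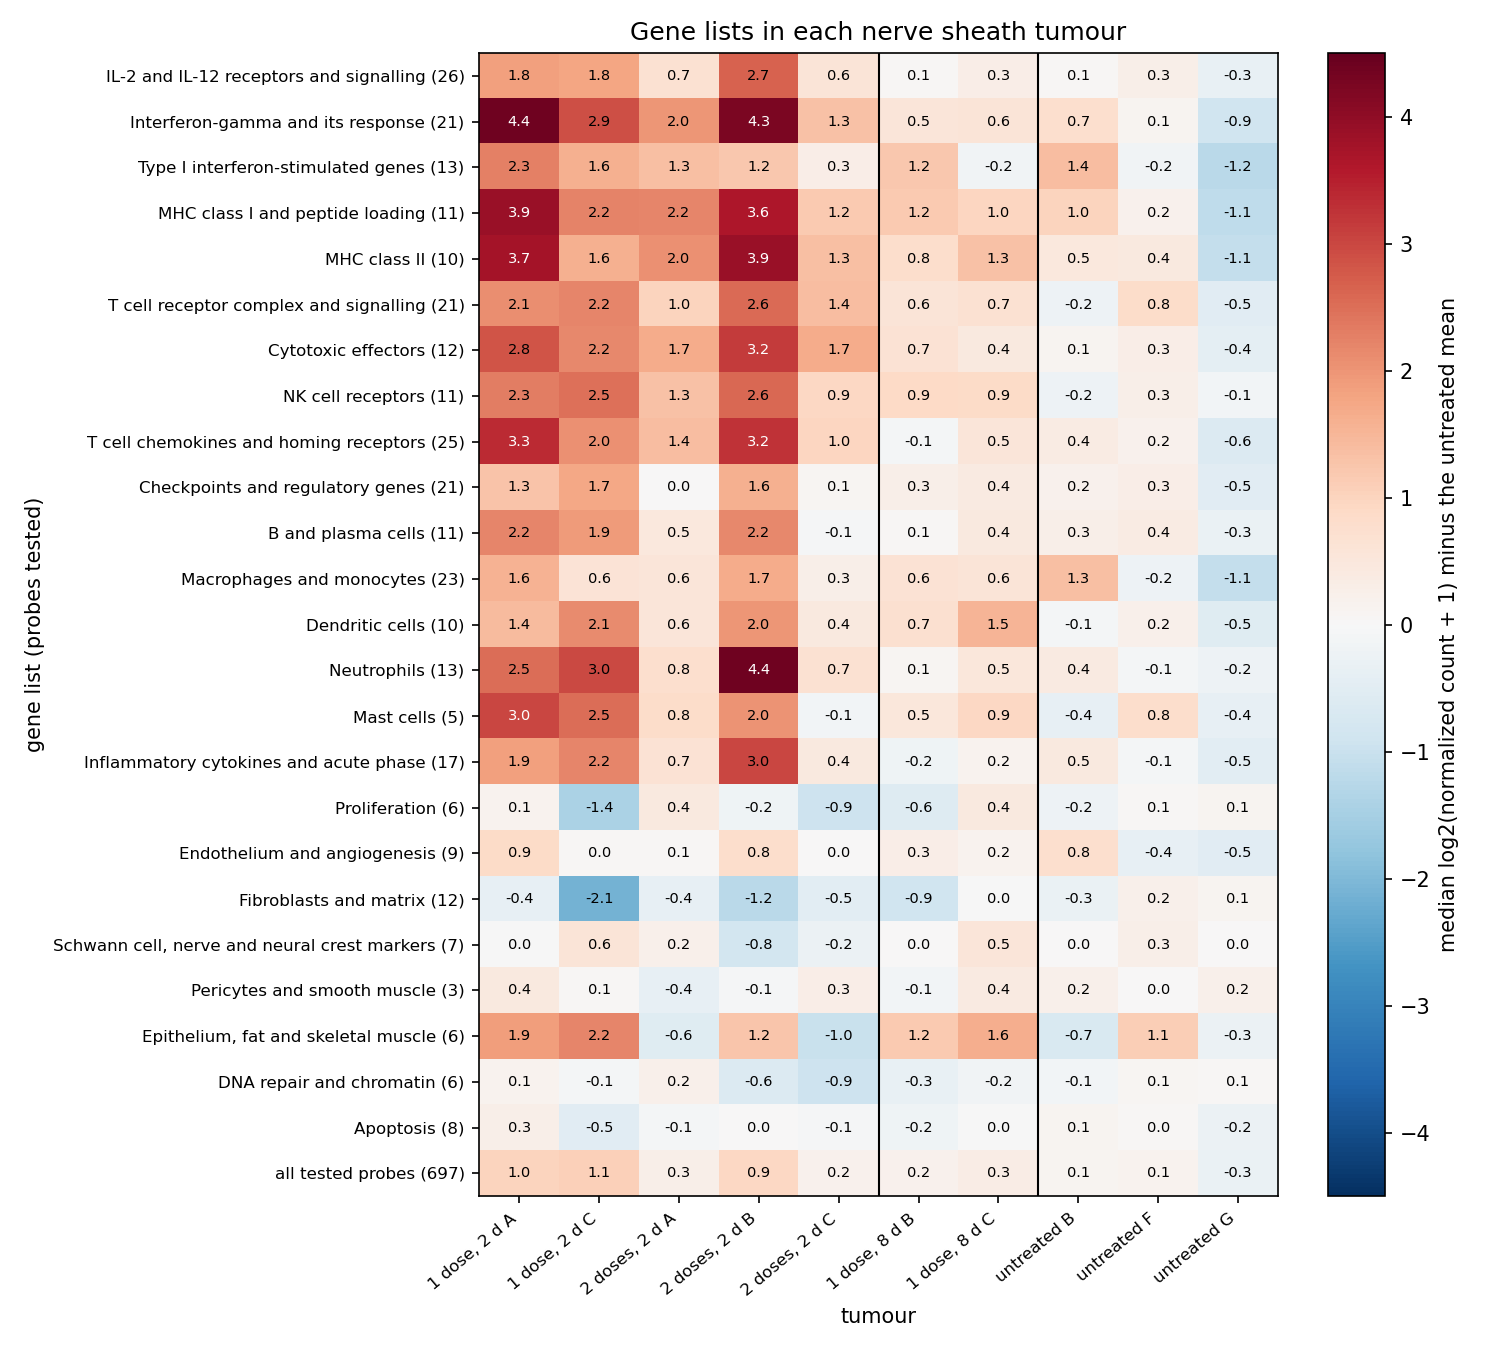
Rows are the 24 gene lists and all tested probes (number of probes tested in brackets) and columns the 10 nerve sheath tumours, with 5 taken 2 days after dosing, then 2 at 8 days, then 3 untreated. Colour and number give the median log2(normalized count + 1) minus the mean of the untreated tumours; the interferon-gamma row runs from 1.32 to 4.37 in the first 5 columns.

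Counts of single probes set the same 3 tumours apart from the other two. One-dose tumours A and C and two-dose tumour B had 243, 221 and 259 of 697 probes at least 2-fold above the highest untreated tumour and above background, whereas two-dose tumours A and C had 52 and 56. With TMM scaling one-dose tumours A and C and two-dose tumour B had 134, 138 and 148, and two-dose tumours A and C had 41 and 47. At least 2-fold below the lowest untreated tumour were 13, 55 and 39 probes in one-dose tumours A and C and two-dose tumour B with housekeeping scaling, and 87, 139 and 164 with TMM. Two-dose tumours A and C had 11 and 17 with housekeeping scaling and 20 and 22 with TMM. The 3 tumours with the most probes above the highest untreated tumour were the 3 with the low housekeeping means given above. The part of the low means in these probe counts was not tested. Two-dose tumours A and C had housekeeping means of 643 and 608, beside 534 to 635 in the untreated tumours. In all 5 tumours at once, 15 probes (2.15%) were at least 2-fold above the highest untreated value and above background: GZMB, CXCL10, IDO1, NKG7, GZMA, CCL4, CCL8, EOMES, IL2RB, LOC490356, SLAMF6, IFNG, ISG20, CALHM6 and IL15. SLAMF6, an adhesion receptor of lymphocytes, read 140.2, 204, 44.9, 441 and 30.4 in the treated tumours, against 10.1, 13.1 and 2.13 in the untreated ones, and IL15, the cytokine that shares IL2RB with IL-2, read 808, 1384, 372, 943 and 357 in the treated tumours, against 177, 166 and 107 in the untreated ones. Across the tested probes, which share libraries and are not independent replicates, log2 values of pairs of untreated tumours correlated at r = 0.87 to 0.95, two-dose tumours A and C correlated with them at 0.84 to 0.93, and two-dose tumour B at 0.52 to 0.70.

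**Figure D5:**
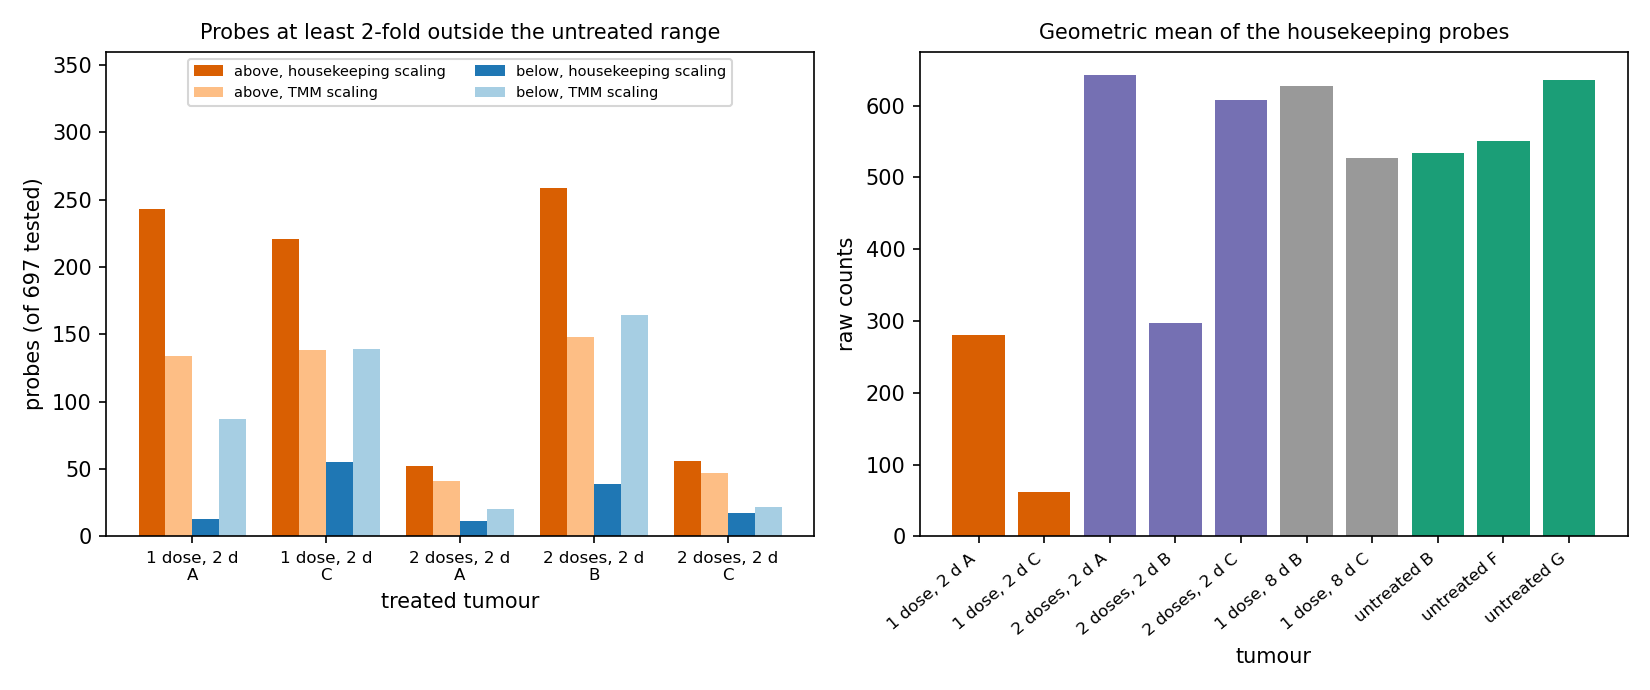
Left, the number of the 697 tested probes at least 2-fold above or below the untreated range in each tumour taken 2 days after dosing, with housekeeping and TMM scaling. Right, the geometric mean of the housekeeping probes in raw counts for each tumour. One-dose tumours A and C and two-dose tumour B, with 279.9, 61.9 and 297, have both the low means and the high numbers of probes above the untreated range.

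Each dosing schedule alone also gave 0 calls with edgeR at an adjusted p under 0.05. For 3 two-dose against 3 untreated tumours 124 probes (17.8%) were higher and 2 (0.287%) lower at an unadjusted p under 0.05, while at an adjusted p under 0.05 DESeq2 called 95 higher (13.6%) and 2 lower (0.287%) and limma called 0 higher and 0 lower. For 2 one-dose against 3 untreated tumours the numbers were 212 (30.4%) and 1 (0.143%), while at an adjusted p under 0.05 DESeq2 called 189 higher (27.1%) and 3 lower (0.43%) and limma called 9 higher (1.29%) and 0 lower. With TMM scaling edgeR called 17 higher probes (2.44%) after 1 dose. All 3 groups share 1 estimate of the spread, so tumours of the other schedule bear on the calls after 1 dose. There edgeR called 158 higher and 1 lower without two-dose tumour B, 20 higher without two-dose tumour C and 1 higher without two-dose tumour A. Without one-dose tumour A, which leaves the low-count tumour C as the only one-dose tumour and assumes that it varies like the other groups, edgeR called 25 higher. Both comparisons share the untreated tumours. GZMB differed from untreated by 7.08 ± 1.51 after 2 doses and 6.07 ± 1.47 after 1 dose, and CXCL10 by 7.34 ± 1.87 after 2 doses and 9.74 ± 2.09 after 1 dose. The interferon-gamma list had a median of 3.00 after 2 doses and 3.83 after 1 dose, beside 0.45 and 1.23 for all probes.

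The direct comparison of 3 two-dose with 2 one-dose tumours gave 0 edgeR calls, 2 probes higher (0.287%) and 57 lower (8.18%) at an unadjusted p under 0.05, while at an adjusted p under 0.05 DESeq2 called 0 higher and 22 lower (3.16%) and limma called 0 higher and 0 lower. The edgeR count of lower probes was 23 without one-dose tumour A and 2 without two-dose tumour B. The probes with the lowest p were CXCL13, IL32 and CD1E on the lower side and CXCR4, CLDN1 and COLEC12 on the higher side. CXCL13 had 22.4, 27.4 and 22.3 normalized counts in two-dose tumours A, B and C, against 292 and 277 in one-dose tumours A and C (log2 difference -3.56 ± 0.67; edgeR adjusted p = 0.27). IL32, an inflammatory cytokine of T and NK cells in humans, had 22.4, 108 and 31.2 in the two-dose tumours, against 922 and 721 in the one-dose tumours. CXCR4, the receptor for CXCL12, had 1960.0, 812 and 1588 in the two-dose tumours, against 419 and 532 in the one-dose tumours. GZMB differed by 1.01 ± 1.33, IFNG by 0.43 ± 1.54 and CXCL10 by -2.40 ± 1.58 between the schedules. One of the 2 one-dose tumours was the library with few counts, and the authors' deposited values show a further factor per probe, with an SD of 0.056 log2, in the two-dose and untreated libraries and not in the one-dose ones; this factor and the schedule cannot be told apart, nor can this factor and 1 dose in the comparison of one-dose with untreated tumours.

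In the tumours taken 8 days after 1 dose, CXCL10, CCL8 and IDO1 were lower in both tumours than in all 5 taken at 2 days. Between the 5 tumours taken 2 days after dosing and the 2 taken at 8 days, edgeR called 0 of 705 probes, 97 (13.8%) were higher and 6 (0.851%) lower at an unadjusted p under 0.05, while at an adjusted p under 0.05 DESeq2 called 67 higher (9.5%) and 2 lower (0.284%) and limma called 0 higher and 0 lower. In all 5, 112 probes (15.9%) were higher and 18 (2.55%) lower than in both day 8 tumours. CXCL10 had 169808, 13902, 11763, 38931 and 1412 normalized counts at 2 days, against 129 and 108 in the day 8 tumours B and C (log2 difference 8.63 ± 2.34; edgeR adjusted p = 0.245). CCL8 had 7834, 1771, 994, 8275 and 435 at 2 days, against 46.8 and 74.6 at 8 days (log2 difference 5.99 ± 1.49; edgeR adjusted p = 0.245, the lowest p of this comparison). IDO1 was at 114 and 142 normalized counts in day 8 tumours B and C, IFNG at 13.7 and 10.3 and GBP5 at 33.1 and 20.6. The interferon-gamma list had 15 of 21 tested genes higher in all 5 tumours at 2 days, and its median difference from 8 days was 3.23, beside 0.67 for all probes.

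Set against the untreated tumours, the 2 tumours taken at day 8 had 120 of 705 probes (17%) above and 39 (5.53%) below the untreated range in both. Groups without overlap are easier to reach with fewer tumours. These shares therefore cannot be compared with those of the larger group taken 2 days after dosing. The comparison of day 8 with untreated tumours gave 0 edgeR calls at an adjusted p under 0.05. At an unadjusted p under 0.05 edgeR gave 13 probes higher (1.84%) and 2 lower (0.284%). At an adjusted p under 0.05 DESeq2 called 0 higher and 0 lower and limma called 0 higher and 0 lower. CD160 was among the 3 higher probes with the lowest p, with 27.3 and 66.9 normalized counts at 8 days, against 16.9, 9.84 and 11.4 in untreated tumours (log2 difference 1.88 ± 0.65; edgeR adjusted p = 0.999). GZMB at 8 days was 124 and 44.6, against 37.2, 44.3 and 13.5 in untreated tumours, and CD8A was 95.7 and 77.99, against 8.45, 92.6 and 22.0. IDO1, IFNG and GZMB, like CD160, were above the untreated range in both day 8 tumours. IFNG, however, was under the background limit in both, 22.3 and 22.2 normalized counts in tumours B and C. For GZMB the gap was minimal, with 44.6 in day 8 tumour C against 44.3 in untreated tumour F. THY1 at 8 days was 10582 and 14144, against 9859, 18214 and 12965 in untreated tumours, so the low values seen at 2 days were not present. KIT at 8 days was 147 and 141, within the values at 2 days. With 2 tumours at 8 days a high p does not show that values were alike.

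With edgeR and housekeeping scaling, the comparison matched for tumour type gave 0 calls. With the other sarcoma types added, giving 7 treated and 7 untreated tumours, edgeR called 311 of 721 probes higher (43.1%) and 17 lower (2.36%) at an adjusted p under 0.05. The added treated tumours were a myxosarcoma and a fibrosarcoma, and the added untreated ones were all perivascular wall tumours. Among the added tumours, sarcoma type and treatment therefore cannot be told apart. The nerve sheath tumours are part of that larger comparison, so the values are set side by side and the larger comparison is no independent repeat. EGFR, a growth factor receptor, differed by -0.35 ± 0.57 in nerve sheath tumours and by -0.95 ± 0.36 over all types (edgeR adjusted p = 0.0401 there). TUBB3 differed by -0.67 ± 0.89 within the type and -1.43 ± 0.70 over all types, and NCAM1 by -0.59 ± 1.01 within the type and -1.53 ± 0.70 over all types. CLDN1 differed by 0.58 ± 1.10 within the type and -0.94 ± 0.90 over all types, with opposite signs. THY1 differed by -1.53 ± 0.62 within the type and -1.51 ± 0.48 over all types, and CD276 by -1.03 ± 0.43 within the type and -0.96 ± 0.25 over all types. S100A9 differed by 6.17 ± 1.90 within the type and 3.20 ± 1.41 over all types, and CXCL8 by 3.32 ± 1.20 within the type and 0.79 ± 1.21 over all types. Within the type, 1 tumour moved several of these values: without two-dose tumour B the difference was 3.28 for S100A9 and 1.68 for CXCL8, without two-dose tumour A it was -1.52 for TUBB3 and -2.16 for NCAM1, without two-dose tumour C it was -0.79 for CLDN1, and without untreated tumour F it was 0.17 for EGFR. Whether these values differ between the nerve sheath tumours and the other types was not tested.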

How the data were processed

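Formalin-fixed tumours were measured on the nCounter canine immune-oncology panel. The deposited raw counts per probe are whole numbers, not normalized, and never under 1. The authors' deposited normalized signal is a multiple of the raw counts, and how it was made is not given in the sources used here. Tables of the series held 17 further columns that could not be matched to a sample, and they were not used.

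Counts were divided by each tumour's geometric mean over 20 housekeeping probes, which also served as library size in the tests, and multiplied by the mean of that value over the 8 tumours. A probe was tested if it was above the mean plus 2 SD of the 8 negative controls in at least 3 of the fitted samples, which kept 697 of 780 probes, or 705 with the day 8 tumours. The 6 comparisons used the quasi-likelihood test of edgeR 4.0.16 in R 4.3.3 with Benjamini-Hochberg adjustment. SEs were worked back from its F statistic. P-values reflect the spread between dogs. The script was tested on simulated data. Alternatives were TMM and median-of-ratios scaling, other housekeeping and control scalings, DESeq2 1.42.0, limma 3.58.1 on log2 of the deposited signal, other filters, background subtraction, edgeR options, other sample sets and leaving out each tumour.

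Members and gene lists were chosen with earlier results of these data known. Named genes were the anchors of the lists, the 3 largest absolute log2 changes of each list and, as edgeR called no probe, the 3 lowest p-values in each direction of each comparison; others are stated as chosen after seeing their values. Some genes that the rule names are not reported here.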

Additional observations from a re-analysis of the deposited data

Results flagged for a closer look

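Among the 5 tumours taken 2 days after the last dose, 8 of 152 measures had 1 tumour far from the other 4, with a gap of over 0.71 of the group's whole range (Dixon's limit). Chance alone flags about 1 in 20 such groups. One-dose tumour C accounted for 5 of the 8. Its endogenous total of 126997 counts was the lowest. It was highest in FOXP3 with 197 normalized counts, in TNFRSF17, the plasma cell receptor BCMA, with 306, and in the glial filament gene GFAP with 240.4, and lowest in BRAF with 211. Its background limit was 152 normalized counts. Without this tumour the log2 difference of treated minus untreated was -0.14 for FOXP3, 0.36 for TNFRSF17, 0.14 for GFAP and -0.63 for BRAF, against 1.01, 1.70, 1.09 and -0.74 with it. STAT4 was far above the other treated tumours in two-dose tumour C, at 398 normalized counts, CXCR3 in two-dose tumour B, at 455, and IFIH1, a sensor of viral RNA, in one-dose tumour A, at 1578.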

How the results depend on the processing

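With housekeeping scaling and edgeR, 0 probes passed an adjusted p under 0.05 in any of the 6 comparisons. DESeq2 called 162 higher and 3 lower for all treated against untreated, 95 higher and 2 lower for 2 doses against untreated, 189 higher and 3 lower for 1 dose against untreated, 0 higher and 22 lower for 2 doses against 1 dose and 67 higher and 2 lower for 2 days against 8 days, and 0 for 8 days against untreated. Other settings gave calls for all treated against untreated: 2 higher with limma, 66 higher and 2 lower with all 17 tumours in the fit, and 311 higher and 17 lower with all sarcoma types. For 1 dose against untreated, the higher calls were 17 with TMM, 9 with median-of-ratios scaling, 9 with limma and 1 with the newer quasi-likelihood option of edgeR. The number of probes lower in every treated tumour was 64 with TMM and 51 with median-of-ratios scaling. Leaving out each tumour in turn gave 0 to 85 higher probes called for all treated against untreated, 0 to 1 lower probes called for all treated against untreated, 0 to 158 higher probes called for 1 dose against untreated, 0 to 1 lower probes called for 1 dose against untreated, 0 to 23 lower probes called for 2 doses against 1 dose, 102 to 207 higher probes without overlap for all treated against untreated and 11 to 26 lower probes without overlap for all treated against untreated. Groups without overlap are easier to reach with a tumour left out, so the counts without overlap tend to rise by construction. The cause of the other changes was not tested.

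Of 150 named genes, 121 kept the sign of their log2 difference between treated and untreated tumours in every setting run. With TMM scaling, 16 turned sign: IL12RB2 (-0.62), MX1 (-0.12), KLRK1 (-0.12), LAG3 (-0.30), IL10 (-0.60), MKI67 (-0.54), VEGFA (-0.65), PDGFRB (-0.16), S100B (-0.42), ERBB3 (-0.021), CDH1 (-0.16), BRCA1 (-0.12), BAX (-0.50), CASP8 (-0.094), MCAM (-0.74) and IL26 (-0.52). With median-of-ratios scaling, 15 turned sign: IL12RB2 (-0.55), MX1 (-0.10), KLRK1 (-0.074), LAG3 (-0.23), IL10 (-0.51), MKI67 (-0.46), VEGFA (-0.59), PDGFRB (-0.13), S100B (-0.32), CDH1 (-0.017), BRCA1 (-0.065), BAX (-0.44), CASP8 (-0.013), MCAM (-0.66) and IL26 (-0.47). With limma on the authors' deposited values, 4 turned sign: CD163 (0.046), MKI67 (-0.66), CLDN1 (-0.24) and MCAM (-0.0094). With background subtraction, 1 turned sign: IL26 (-0.26). With the schedules as separate groups, 1 turned sign: CLDN1 (-0.30). With two-dose and untreated tumours only, 8 turned sign: LAG3 (-0.0077), BIRC5 (0.019), S100B (-0.26), ERBB3 (-0.11), MCAM (-0.039), KRT8 (-0.25), CXCL13 (-0.87) and IL26 (-0.26). With all 17 tumours in the fit, 1 turned sign: CLDN1 (-0.0024). With all sarcoma types, 5 turned sign: MRC1 (0.47), BIRC5 (0.048), MMP9 (-1.98), CLDN1 (-0.94) and C7 (-0.23). Leaving out each tumour in turn, these turned sign in at least 1 case, with the lowest and highest log2 differences being MX1 -0.058 to 2.65, KLRK1 -0.052 to 0.97, LAG3 -0.022 to 0.95, FOXP3 -0.14 to 1.28, IL10 -0.049 to 0.66, CD163 -1.70 to 1.42, MRC1 -0.66 to 0.64, BIRC5 -0.41 to 0.44, PECAM1 -0.39 to 0.78, VEGFA -0.22 to 0.36, S100B -0.090 to 1.08, EGFR -0.68 to 0.17, CLDN1 -0.79 to 1.46, BCL2 -0.87 to 0.57, MCAM -0.11 to 0.31, CD1E -0.064 to 1.86 and IL26 -0.12 to 0.74. The cause of these turns was not tested. For DESeq2, 72 named genes passed the threshold that edgeR did not pass.

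No paired analysis was possible because each tumour came from a dog of its own and the letters only name tumours within a group. Depth limits one-dose tumour C most, with 126997 endogenous counts and a background limit of 152 normalized counts. Error between dogs, with 2 to 5 tumours a group, sets the precision of every difference.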

Other observations

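GATA3, the transcription factor of type 2 helper T cells, stood at 114 and 168 normalized counts in one-dose tumours A and C, 0.702, 16.7 and 19.3 in two-dose tumours A, B and C, 28.8 and 30.0 in day 8 tumours B and C and 0.845, 0.820 and 0.7103 in the untreated tumours. Values under 1 stand for 1 raw count, the lowest value in the files, so no fold is given against them. LOC490356, a gene named here only by its locus symbol, had 733, 495, 116, 358 and 92.0 in the treated tumours, 38.8 and 45.4 at day 8 and 29.6, 39.3 and 27.7 in the untreated tumours, and the groups at 2 days and untreated did not overlap. CALHM6, a channel protein gene of immune cells, had 1360.4, 379, 325, 2113 and 254 in the treated tumours, 178 and 109.7 at day 8 and 55.8, 118 and 102 in the untreated tumours. The receptor tyrosine kinase RET had 14.5, 43.7, 8.42, 4.56 and 23.7 in the treated tumours, 39.6 and 23.1 at day 8 and 33.8, 95.9 and 93.8 in the untreated tumours.

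Some genes were high in the tumours taken at day 8. F13A1, coagulation factor XIII A, which tissue macrophages make, had 322, 219, 225, 143 and 159 normalized counts in the tumours taken 2 days after dosing and 858 and 659 in day 8 tumours B and C, without overlap. Their log2 difference was -1.83 ± 0.47 (edgeR adjusted p = 0.245), and the untreated tumours had 485, 243 and 229. C7, a complement component of the membrane attack complex, had 3118 and 1398 at day 8, against 69.3, 207 and 329 in the untreated tumours (log2 difference 3.48 ± 1.09; edgeR adjusted p = 0.999), and 482, 335, 367, 123 and 2285 at 2 days. IL26, a cytokine of T cells, and MAP2, a microtubule protein of neurons, were high in day 8 tumour B only: IL26 had 535 and 78.9 and MAP2 405 and 13.7 in the 2 tumours.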
